A study of Mus musculus with 6 samples.

Results

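The 56 genes described here serve mitosis: they trigger entry into it, hold or release sister chromatids, build the kinetochore and the spindle, and divide the cell. They were taken by gene symbol from the 2 raw count tables of the study, which list 26286 genes each, and all 56 symbols were found. Of these, 46 had reads in the libraries of both protocols. The other 10, Ccna2, Ccnb2, Ttk, Cenpe, Spc24, Kif15, Ckap2, Kif23, Ect2 and Anln, stood at 0 in all 4 single-cell protocol libraries, and only their poly(A) counts are given.

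The cells were CD4+ CD25high regulatory T cells (Treg), which restrain immune responses under the transcription factor Foxp3. They were sorted from pooled spleens and lymph nodes of C57BL/6 mice that carry a green fluorescent protein (GFP) reporter for Blimp-1, the repressor that the gene Prdm1 encodes, and the titles of all 6 libraries begin with BlimpHet. GFP+ and GFP- cells of these mice were compared, with no treatment named, and the labels give neither the age of the mice nor how many were pooled. Each population had 3 libraries, named here by the replicate number in their titles. Poly(A) selection gave 1 of them, replicate 20 for GFP- and 19 for GFP+ cells. The other 2, replicates 2 and 5 for GFP- and 1 and 4 for GFP+ cells, were amplified by a protocol devised for single cells but used on many sorted cells at once.

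A resting T cell keeps most mitotic genes low, and a cell that has left rest transcribes them late in its cycle, from the second gap phase into mitosis. Cyclin B with the kinase CDK1 drives a cell into mitosis. The anaphase-promoting complex (APC/C), a ubiquitin ligase, ends it by marking cyclin B and securin for destruction. Between these steps kinetochores join chromosomes to spindle fibres, and a checkpoint holds the APC/C back until all are attached. MKI67, the antigen behind the Ki-67 stain, and TOP2A are widely used as marks of dividing cells.

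The libraries held between 15224051 and 28354321 counts, and the mitosis genes took 2633 to 66929 of these. Prdm1 stood at 420, 34 and 21 counts in the GFP- libraries (20, 2, 5) and at 7451, 542 and 407 in the GFP+ libraries (19, 1, 4), so it followed the labels. Foxp3 and Cd4 were present in every library. All 10 genes without single-cell protocol counts lie on chromosomes 3, 8 and 9, where 1652 of 1653 genes with over 200 poly(A) counts were at 0 in those 4 libraries, against 12 of 9094 genes on other chromosomes. The zeros thus go with the chromosome. Markers of myeloid cells, which are not T cells, were higher in GFP+ libraries. Their summed level over 15 listed genes was 15.6 to 31.7 in GFP- and 837 to 1699 in GFP+ libraries, as counts scaled to equal library size by TMM (CPM), none of the 15 was at 0 in all libraries, and their part in the results below was not tested.

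Mitosis genes were higher in GFP+ than in GFP- Treg in every role, from entry into mitosis to cytokinesis. Of the 46 genes with reads in both protocols, 40 rose and 0 fell in a test across all 10523 genes that passed a filter on low counts, where 9.81% of genes rose and 3.68% fell. The filter removed none of the 46. The test was edgeR's quasi-likelihood F-test, fitted to the counts of the 6 libraries with a term for the protocol, and a gene was said to rise or fall when its p, adjusted by the Benjamini-Hochberg method over all genes tested, was under 0.05. DESeq2 called 43 of the 46 higher and 0 lower, beside 1201 higher (11.4%) and 714 lower of the 10523 genes. The 40 genes were 2.14-fold to 8.90-fold higher, with adjusted p between 0.000130 and 0.0344 in edgeR. In bulk RNA a larger number of dividing cells and more of these transcripts per cell cannot be told apart.

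The median log2 fold change of the 46 genes, GFP+ over GFP-, was 1.95, or 3.87-fold, while the median of all genes tested was -0.08. None of the 46 had a fold change below 0 on the log2 scale. It was above 2 for 21 genes, between 1 and 2 for 22 and below 1 for 3, which were Pttg1, Kif20a and Ndc80. Summed over the 46, TMM-scaled CPM was 356, 421 and 314 in the GFP- libraries (20, 2, 5) and 1146, 1856 and 1228 in the GFP+ libraries (19, 1, 4). All GFP+ sums lay above all GFP- sums. Gene by gene, 42 of the 46 were higher in every GFP+ library than in every GFP- library of the same protocol, a pattern that 21.3% of all genes tested showed. The exceptions were Mki67, Pttg1, Cenpf and Ndc80.

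**Figure D1:**
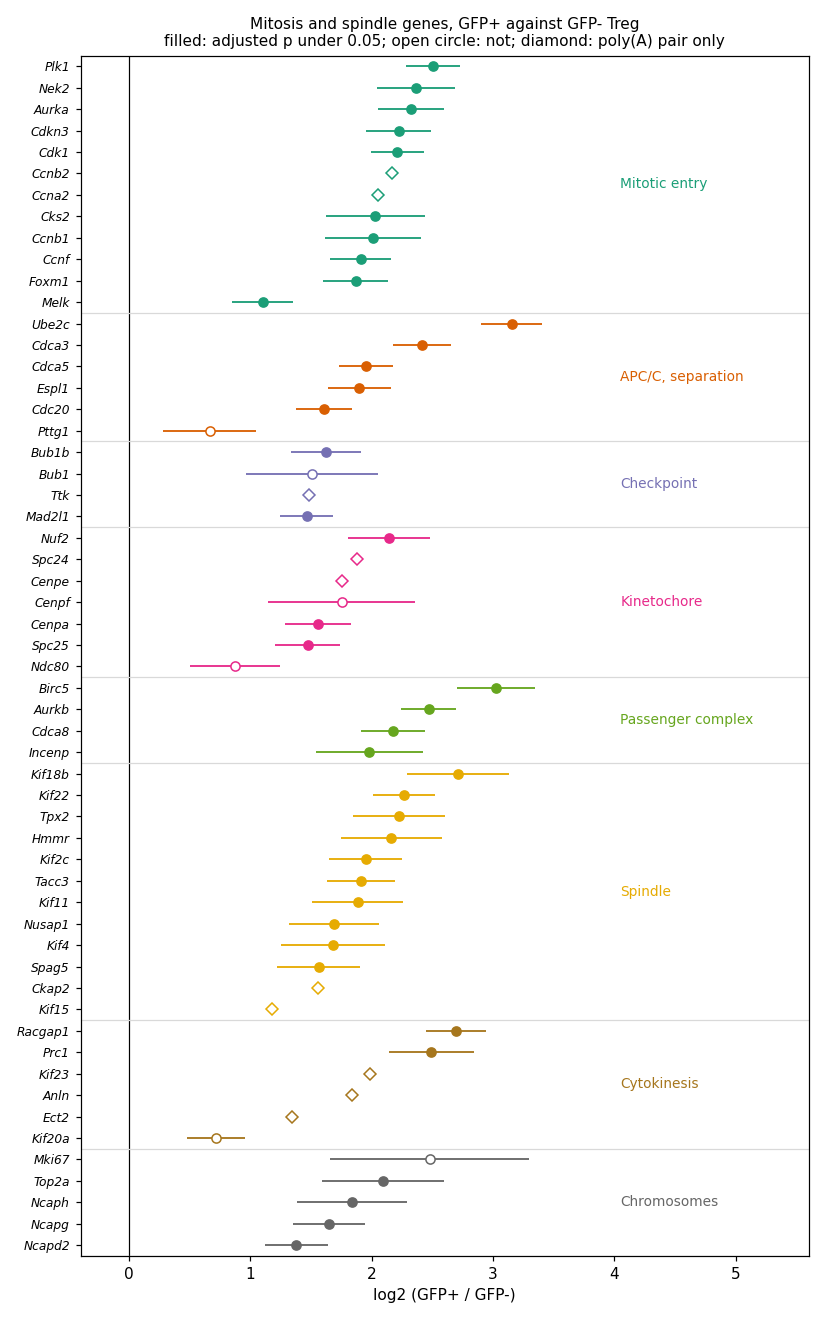
Log2 ratio of GFP+ to GFP- for each of the 56 genes, grouped by role; circles are edgeR fold changes with bars of 1 standard error (3 libraries per population), diamonds are ratios of the single poly(A) pair for the 10 genes without single-cell protocol counts. All circles lie to the right of 0, and the filled ones are the 40 genes that rose.

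Within the poly(A) pair, which has 1 library per population and so no replicate check, 54 of the 56 genes had a log2 ratio above 1, as did 10.1% of the 15722 genes with at least 10 counts. Ratios of the pair are of CPM scaled to all counts of a library, plus 0.5. The ratio was above 0 for 55 genes, against 46.2% of those genes, and the median of the 56 was 1.82. The 2 genes under 1 were Pttg1, at -0.06, and Ndc80, at 0.95. For the 10 genes without single-cell protocol counts the median was 1.79, between 1.18 for Kif15 and 2.16 for Ccnb2.

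Many promoters of mitotic genes carry the cell cycle genes homology region (CHR), which the DREAM complex binds in resting cells and MYB-MuvB and FOXM1 in dividing ones, beside CCAAT boxes bound by the factor NF-Y. RefSeq promoter windows of build GRCm38.p6, 250 bases before to 50 after a transcription start, were found for 49 of the 56 genes, some with more than 1 start, giving 51 windows. A search for TTTGAA and its reverse complement TTCAAA as the CHR, and for CCAAT and its reverse complement ATTGG, on both strands, gave a CHR in 74.5% of the 51 windows and in 17.9% of all 32851 mouse windows of that length. A CHR within 100 bases before to 50 after the start was in 66.7% against 8.01%, a CCAAT box in 74.5% against 37.4%, and both together in 58.8% against 3.17%. No test was made, since many mitosis genes are known in the field by these motifs, and a match of letters is not a bound site.

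The windows below, except that of Pttg1, were picked among genes with a CHR near the start and a CCAAT box. That they hold these motifs is therefore no outcome. Ube2c had the largest rise, and Cdk1 and Plk1 are kinases that drive entry into mitosis. Ccnb2 is the cyclin with the largest poly(A) ratio among genes without single-cell protocol counts. Pttg1, which did not follow the rest, is shown as a contrast. The windows run 5′ to 3′ on the strand of the gene, and capitals mark the CHR and CCAAT matches. Ube2c had 1 CHR, 29 bases before the start on the opposite strand, and 6 CCAAT matches, of which a pair overlap in CCAATTGG. Cdk1 and Ccnb2 each had 2 CHR and 3 CCAAT matches and Plk1 had 1 of each. The Pttg1 window had none of either, which says only that these letters are not in it. Windows of Birc5, Nuf2, Tacc3, Ncaph, Nusap1, Mad2l1 and Melk, which all rose, also had none of either. Those of Mki67 and Cenpf, which did not pass the test, had both.
Ube2c: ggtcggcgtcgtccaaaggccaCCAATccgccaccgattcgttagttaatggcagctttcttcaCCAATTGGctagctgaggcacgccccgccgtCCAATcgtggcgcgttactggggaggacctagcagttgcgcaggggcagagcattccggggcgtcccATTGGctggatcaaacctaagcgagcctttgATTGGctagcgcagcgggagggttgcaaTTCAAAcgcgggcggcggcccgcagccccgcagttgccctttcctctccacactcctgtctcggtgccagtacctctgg
Cdk1: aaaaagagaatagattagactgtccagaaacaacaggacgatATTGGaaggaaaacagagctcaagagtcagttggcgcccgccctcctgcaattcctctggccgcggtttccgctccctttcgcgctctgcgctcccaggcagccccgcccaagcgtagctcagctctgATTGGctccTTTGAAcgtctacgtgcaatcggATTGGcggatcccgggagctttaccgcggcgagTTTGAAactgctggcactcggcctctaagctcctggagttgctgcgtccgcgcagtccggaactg
Plk1: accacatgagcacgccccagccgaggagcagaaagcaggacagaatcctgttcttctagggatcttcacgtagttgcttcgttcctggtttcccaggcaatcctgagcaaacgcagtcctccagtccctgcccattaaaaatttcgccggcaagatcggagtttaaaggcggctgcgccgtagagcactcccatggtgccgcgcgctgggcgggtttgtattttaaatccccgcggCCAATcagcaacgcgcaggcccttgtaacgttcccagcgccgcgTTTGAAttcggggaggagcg
Ccnb2: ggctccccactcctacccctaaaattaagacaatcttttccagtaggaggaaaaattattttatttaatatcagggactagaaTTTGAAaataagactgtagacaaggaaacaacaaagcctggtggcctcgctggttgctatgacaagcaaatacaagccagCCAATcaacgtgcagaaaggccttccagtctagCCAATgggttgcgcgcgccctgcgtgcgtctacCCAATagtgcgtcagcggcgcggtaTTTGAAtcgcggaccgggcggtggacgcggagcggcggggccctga
Pttg1: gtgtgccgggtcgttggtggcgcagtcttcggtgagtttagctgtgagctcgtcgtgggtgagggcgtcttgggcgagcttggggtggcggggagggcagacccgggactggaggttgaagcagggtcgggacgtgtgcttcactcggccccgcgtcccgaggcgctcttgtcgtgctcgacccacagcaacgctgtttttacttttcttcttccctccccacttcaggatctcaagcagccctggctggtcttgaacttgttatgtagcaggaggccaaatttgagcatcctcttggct

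Among the regulators of mitotic entry all 10 tested genes rose, with a median log2 fold change of 2.12. Cdk1, the kinase at the centre of entry, stood at 3.24, 8.13 and 8.24 TMM-scaled CPM in the GFP- libraries (20, 2, 5) and at 14.1, 43.1 and 35.3 in the GFP+ libraries (19, 1, 4). Within each protocol every GFP+ library was above every GFP- library, and the log2 fold change was 2.21 ± 0.22 (SE; adjusted p = 0.000350, edgeR). Plk1, a kinase that acts from entry to cytokinesis, stood at 6.52, 4.51 and 4.54 CPM in the GFP- and at 32.6, 30.0 and 25.2 CPM in the GFP+ libraries. Its groups did not overlap even across protocols, and it rose by 2.50 ± 0.23 on the log2 scale (adjusted p = 0.000227, edgeR).

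Aurka, the kinase that matures centrosomes, stood at 4.61, 3.96 and 2.98 CPM in GFP- and at 17.8, 23.6 and 17.6 CPM in GFP+ libraries, again without overlap (log2 fold change 2.33 ± 0.27, adjusted p = 0.000766, edgeR). Ccnf, a cyclin that serves as the substrate receptor of a ubiquitin ligase, stood at 8.50, 3.83 and 5.01 CPM against 31.8, 13.7 and 19.2 CPM. Its log2 fold change was 1.91 ± 0.25 (adjusted p = 0.00132, edgeR), and its groups did not overlap. Foxm1, the transcription factor that activates many of these genes, rose by 1.87 ± 0.27 on the log2 scale, and Nek2, a kinase that parts the centrosomes, by 2.37 ± 0.32. Cdkn3, a phosphatase that acts on CDKs, rose by 2.22 ± 0.27, and Cks2, a small partner of CDKs, by 2.03 ± 0.41.

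Of the cyclins that pair with CDK1, Ccnb1 was tested and rose by 2.01 ± 0.40 on the log2 scale (adjusted p = 0.0105, edgeR), with 61, 33 and 6 counts in GFP- and 237, 107 and 78 in GFP+ libraries. Ccnb2 had 289 poly(A) counts in GFP- and 1398 in GFP+ cells, and Ccna2 had 483 and 2130, log2 ratios of 2.16 and 2.05. The 95% exact Poisson intervals of the Ccnb2 counts were 257 to 324 and 1326 to 1473, which cover counting error only. The smallest rise in the group was that of Melk, a kinase found in dividing cells, at 1.10 ± 0.25 (adjusted p = 0.0212, edgeR). The call for Ccnb1 was lost without GFP+ replicate 1 (adjusted p = 0.0724, edgeR). That for Melk was lost without GFP- replicate 20, GFP+ 19, GFP+ 1 or GFP+ 4, with adjusted p between 0.0682 and 0.195 in edgeR.

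**Figure D2:**
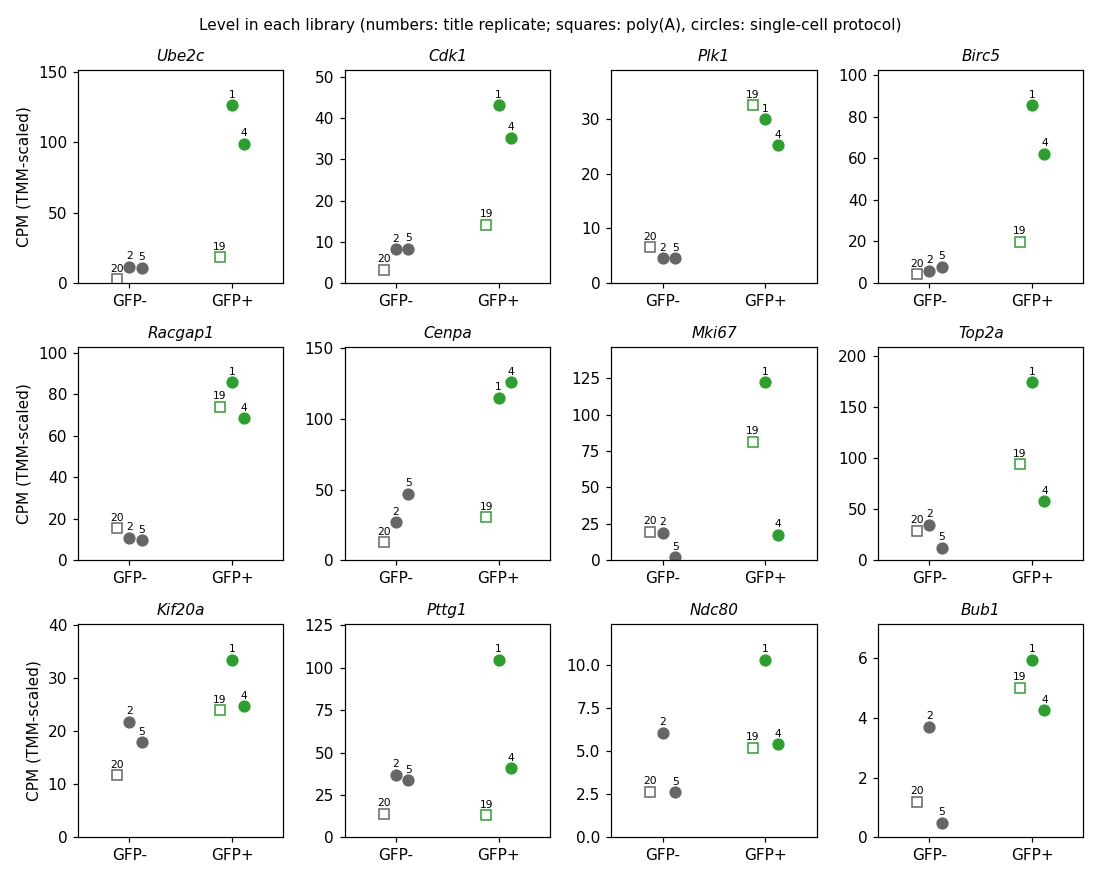
TMM-scaled CPM of 12 of the genes in each of the 6 libraries, GFP- in grey and GFP+ in green, squares for poly(A) and circles for single-cell protocol libraries, with the title number above each point. Ube2c, Cdk1 and Plk1 separate within each protocol, whereas GFP+ replicate 4 of Mki67 lies at 17.3 CPM, under GFP- replicate 2 at 18.9 CPM.

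Genes of the APC/C and of sister chromatid release held both the largest and the smallest change: 5 of 6 rose. Ube2c encodes the enzyme that hands the first ubiquitins to the substrates of the APC/C. It stood at 2.64, 11.5 and 10.6 CPM in the GFP- libraries (20, 2, 5) and at 18.1, 126 and 98.9 CPM in the GFP+ libraries (19, 1, 4). The rise was 8.90-fold, or 3.15 ± 0.25 on the log2 scale (adjusted p = 0.000130, edgeR), and the populations did not overlap within a protocol.

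Cdca3, which helps to trigger entry into mitosis by the destruction of the CDK1 inhibitor WEE1, stood at 4.28, 12.8 and 11.9 CPM against 16.7, 81.1 and 73.4 CPM. Its log2 fold change was 2.41 ± 0.24 (adjusted p = 0.000357, edgeR). Cdc20, the activator of the APC/C that the checkpoint restrains, stood at 9.28, 9.56 and 6.68 CPM in GFP- and 30.2, 25.2 and 22.9 CPM in GFP+ libraries, without overlap (log2 fold change 1.61 ± 0.23, adjusted p = 0.00217, edgeR). Cdca5, known as sororin, which guards cohesion, rose by 1.96 ± 0.22 on the log2 scale. Espl1, the separase that cuts cohesin, rose by 1.90 ± 0.26.

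Pttg1, the securin that holds separase inactive, did not pass the test. It had 682 counts in each of the 2 poly(A) libraries, and the single-cell protocol libraries stood at 37.0 (GFP- 2), 33.7 (GFP- 5), 105 (GFP+ 1) and 40.8 CPM (GFP+ 4). Only GFP+ replicate 1 stood clearly apart. The log2 fold change was 0.67 ± 0.38 (adjusted p = 0.316, edgeR), and 0.08 without GFP+ replicate 1. The 95% exact interval of the log2 poly(A) ratio, for counting error, was -0.21 to 0.10. For comparison, the separase gene Espl1 had 311 poly(A) counts in GFP- and 1223 in GFP+ cells.

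Of the 3 tested genes of the spindle assembly checkpoint, 2 rose. Mad2l1, which is held on unattached kinetochores, stood at 5.74, 12.6 and 12.3 CPM in GFP- and 12.6, 37.8 and 39.8 CPM in GFP+ libraries (log2 fold change 1.46 ± 0.22, adjusted p = 0.00271, edgeR). Bub1b, the pseudokinase BUBR1 that joins MAD2 in the inhibitor of the APC/C, stood at 9.10, 7.24 and 4.42 CPM against 28.1, 22.4 and 13.9 CPM (1.62 ± 0.29, adjusted p = 0.00610, edgeR). Both separated the populations within each protocol.

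Bub1, the kinase that recruits checkpoint proteins to the kinetochore, stood at 1.19, 3.69 and 0.477 CPM in the GFP- libraries (20, 2, 5) and at 5.01, 5.94 and 4.24 CPM in the GFP+ libraries (19, 1, 4). Its populations did not overlap, but the GFP- single-cell protocol libraries lay far apart at 54 and 4 counts, and the test gave 1.51 ± 0.54 with an adjusted p of 0.111 in edgeR. Without GFP- replicate 2 it was called higher, at 2.45 (adjusted p = 0.00846, edgeR). Ttk, the MPS1 kinase that starts the checkpoint signal, had 55 poly(A) counts in GFP- and 186 in GFP+ cells, a log2 ratio of 1.49.

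In the centromere and kinetochore group 3 of 5 tested genes rose. Cenpa, the histone H3 variant that marks the centromere, stood at 12.6, 26.9 and 46.9 CPM in GFP- and at 30.2, 115 and 126 CPM in GFP+ libraries (log2 fold change 1.56 ± 0.27, adjusted p = 0.00566, edgeR). It was one of the genes that ran lower in GFP- replicate 2 than in replicate 5. Cenpf, a large protein of the outer kinetochore, and Cenpe, the motor that carries chromosomes to the spindle equator, were 709 against 168 and 592 against 159 counts in the poly(A) pair. Cenpf had 28 and 1 counts in the GFP- and 67 and 25 in the GFP+ single-cell protocol libraries, so these overlapped. It did not pass the test (1.75 ± 0.61, adjusted p = 0.101, edgeR), but passed without GFP- replicate 2, GFP- replicate 5 or GFP+ replicate 4, with adjusted p between 0.0383 and 0.0441 in edgeR.

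The NDC80 complex, the main coupler of kinetochores to microtubules, has 4 subunits among these genes, of which 2 of 3 tested rose. Nuf2 stood at 1.91, 5.74 and 2.51 CPM in GFP- and at 8.09, 22.9 and 15.4 CPM in GFP+ libraries and rose by 2.14 ± 0.34 on the log2 scale (adjusted p = 0.00334, edgeR). Spc25 stood at 0.635, 4.78 and 4.77 CPM against 2.34, 10.4 and 12.9 CPM and rose by 1.47 ± 0.27 (adjusted p = 0.00698, edgeR), a call that was lost without GFP- replicate 20 or GFP+ replicate 19 (adjusted p = 0.105 in both, edgeR). Both separated the populations within each protocol. Ndc80 itself stood at 2.64, 6.08 and 2.63 CPM against 5.22, 10.3 and 5.40 CPM, so that GFP+ replicate 4 lay under GFP- replicate 2, and did not pass the test (0.87 ± 0.37, adjusted p = 0.174, edgeR). Whether Nuf2 and Ndc80 differ from each other in their change was not tested. Spc24 had 150 poly(A) counts in GFP- and 614 in GFP+ cells, a log2 ratio of 1.88, and per kilobase of gene length the poly(A) levels of Nuf2 and Ndc80 were 1.42 and 2.15 RPKM in GFP- and 6.19 and 4.36 RPKM in GFP+ cells.

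All 4 genes of the chromosomal passenger complex, which corrects faulty attachments and later moves to the division plane, rose, with a median log2 fold change of 2.32. Birc5, its survivin subunit, stood at 4.14, 5.94 and 7.88 CPM in the GFP- libraries (20, 2, 5) and at 19.8, 85.5 and 62.3 CPM in the GFP+ libraries (19, 1, 4). This was the second largest rise of the 46 genes, 3.02 ± 0.32 on the log2 scale (adjusted p = 0.000489, edgeR). Aurkb, the kinase of the complex, stood at 7.52, 4.51 and 4.18 CPM against 36.3, 23.4 and 28.8 CPM (2.47 ± 0.23, adjusted p = 0.000259, edgeR). Neither gene had any overlap between the populations.

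Cdca8, the borealin subunit, stood at 6.99, 15.0 and 11.7 CPM in GFP- and at 24.1, 81.9 and 57.5 CPM in GFP+ libraries (2.18 ± 0.26, adjusted p = 0.000882, edgeR). Incenp, the scaffold that activates Aurora B, stood at 25.3, 23.5 and 11.7 CPM against 65.2, 127 and 46.3 CPM, and rose by 1.98 ± 0.44 (adjusted p = 0.0184, edgeR). Its rise rested in part on GFP+ replicate 1: without that library it was 1.38, with an adjusted p of 0.0628 in edgeR.

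Among spindle motors and assembly factors all 10 tested genes rose, with a median log2 fold change of 1.93. Tacc3, which binds clathrin on spindle fibres, stood at 7.99, 15.0 and 9.67 CPM in GFP- and at 24.0, 63.0 and 42.3 CPM in GFP+ libraries (1.91 ± 0.28, adjusted p = 0.00233, edgeR). Kif22, a motor that pushes chromosome arms, stood at 5.00, 6.49 and 4.18 CPM against 20.9, 31.2 and 25.0 CPM (2.27 ± 0.26, adjusted p = 0.000699, edgeR). Tpx2, which activates Aurora A on the spindle, stood at 6.97, 6.01 and 2.39 CPM against 27.1, 29.2 and 15.8 CPM (2.22 ± 0.38, adjusted p = 0.00502, edgeR). In these 3 genes the populations did not overlap within a protocol. Nusap1, which bundles microtubules near chromosomes, stood at 3.79, 10.5 and 3.46 CPM against 13.5, 24.8 and 18.9 CPM (1.69 ± 0.37, adjusted p = 0.0171, edgeR), also without overlap.

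Kif18b, which trims the astral microtubules, had the largest change of the group, 2.71 ± 0.42 (adjusted p = 0.00309, edgeR), but few single-cell protocol reads: 2 and 0 counts in GFP- and 13 and 17 in GFP+ libraries, beside 216 and 1264 poly(A) counts. Without GFP- replicate 20 or GFP+ replicate 19 its fitted change was 3.57 and 3.58, values that depend on these few reads. Kif2c, a depolymerase of microtubules at the centromere, rose by 1.95 ± 0.30. Kif11, the motor that pushes the spindle poles apart, rose by 1.88 ± 0.38, Hmmr, a microtubule-binding factor, by 2.16 ± 0.42, Kif4, a chromosome-bound motor, by 1.68 ± 0.43, and Spag5, the spindle factor astrin, by 1.56 ± 0.34.

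Several calls in this role rested on single libraries. Without GFP+ replicate 19, and also without GFP+ replicate 1, 5 of the 10 genes were called: Hmmr, Kif11, Kif4, Nusap1 and Spag5 lost the call in both fits. Their adjusted p there lay between 0.0545 and 0.196 in edgeR, and all kept a positive fold change. Without GFP- replicate 20, Kif4 (adjusted p = 0.132), Nusap1 (0.0697) and Spag5 (0.128) lost it in edgeR as well. Of the genes without single-cell protocol counts, Kif15, a motor that can stand in for Kif11, had 222 and 540 poly(A) counts, a log2 ratio of 1.18 with a counting interval of 1.00 to 1.46 before the added 0.5 CPM, and Ckap2 had 73 and 251.

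In the central spindle and cytokinesis group 2 of 3 tested genes rose. Racgap1, the GTPase-activating subunit of centralspindlin, stood at 15.4, 10.7 and 9.67 CPM in GFP- and at 74.0, 85.7 and 68.4 CPM in GFP+ libraries, with no overlap, and rose by 2.69 ± 0.25 (adjusted p = 0.000253, edgeR). Prc1, which crosslinks the microtubules of the midzone, stood at 3.83, 3.55 and 1.43 CPM against 21.1, 18.2 and 11.5 CPM (2.49 ± 0.35, adjusted p = 0.00191, edgeR). Kif23, the motor partner of Racgap1 in centralspindlin, had 185 poly(A) counts in GFP- and 803 in GFP+ cells, a log2 ratio of 1.98, beside 2.28 for Racgap1 in the same pair.

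Kif20a, a motor that brings the passenger complex to the midzone, stood at 11.7, 21.7 and 17.9 CPM in GFP- and 23.9, 33.5 and 24.7 CPM in GFP+ libraries. Every GFP+ library was above every GFP- library, yet the change was small, 0.72 ± 0.24, and missed the threshold (adjusted p = 0.0871, edgeR). Ect2, which switches on RhoA at the division plane, had 120 and 338 poly(A) counts, and Anln, a scaffold of the contractile ring, 71 and 300, log2 ratios of 1.34 and 1.83.

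Of 5 genes of chromosome structure, 4 rose. Top2a, which untangles sister chromatids, stood at 29.1, 35.0 and 11.9 CPM in GFP- and at 94.1, 175 and 57.9 CPM in GFP+ libraries, and rose by 2.09 ± 0.50 (adjusted p = 0.0249, edgeR). Ncapd2, a subunit of condensin I, stood at 59.6, 27.5 and 25.7 CPM against 125, 95.6 and 58.7 CPM (1.38 ± 0.26, adjusted p = 0.00864, edgeR). Ncaph, the kleisin of condensin I, stood at 4.75, 10.8 and 2.51 CPM against 17.4, 30.5 and 17.8 CPM (1.84 ± 0.46, adjusted p = 0.0297, edgeR). The populations did not overlap within a protocol in any of these 3, and Ncapg, the third condensin I gene listed, rose by 1.65 ± 0.30.

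Without GFP+ replicate 1 only Ncapd2 of these genes was called. The adjusted p was then 0.129 for Top2a, whose change was 1.47, 0.171 for Ncaph and 0.0506 for Ncapg in edgeR. Ncaph was also lost without GFP- replicate 20 or GFP+ replicate 19, with adjusted p of 0.0728 and 0.0724 in edgeR, and its change was 2.47 without GFP- replicate 2.

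Mki67 stood at 19.6, 18.9 and 2.03 CPM in the GFP- libraries (20, 2, 5) and at 81.4, 122 and 17.3 CPM in the GFP+ libraries (19, 1, 4). The single-cell protocol replicates of each population were far apart: 277 and 17 counts in GFP- replicates 2 and 5, and 1585 and 253 in GFP+ replicates 1 and 4. The gene had one of the larger changes, 2.48, but also the largest standard error of the 46, 0.82, and did not pass the test (adjusted p = 0.0871, edgeR). It passed without GFP- replicate 5, at 1.96 (adjusted p = 0.0376), or without GFP+ replicate 4, at 2.91 (adjusted p = 0.0168), in edgeR. Without GFP- replicate 2 the change was 3.37 and without GFP+ replicate 1 it was 1.31, with adjusted p of 0.0745 and 0.462 in edgeR. In the poly(A) pair Mki67 had 955 and 4242 counts, a log2 ratio of 2.08.

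**Figure D3:**
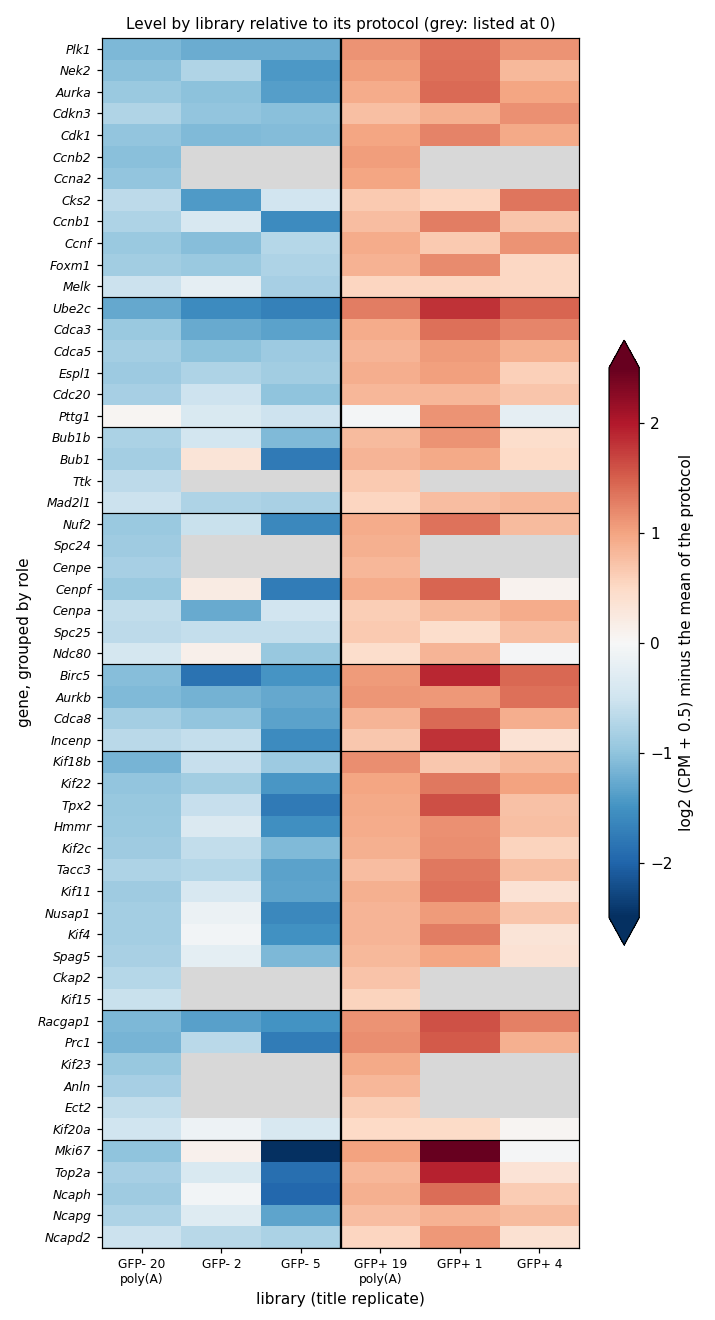
Level of each of the 56 genes in each library, as log2 (CPM + 0.5) minus the mean of the libraries of the same protocol, with GFP- libraries on the left and GFP+ on the right; grey cells mark genes listed at 0. The GFP- columns are mostly blue and the GFP+ columns mostly red, with Pttg1 near 0 in the poly(A) pair and Mki67 at the extremes of both colours.

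The 6 genes that did not pass (Mki67, Kif20a, Cenpf, Bub1, Ndc80 and Pttg1) had a median standard error of 0.463 on the log2 scale, against 0.275 for the 40 that rose. The same test formed these groups and gave the errors, so a larger error in the 6 is partly built in. That of Kif20a, 0.24, was under the median of the 40, and Kif20a, Ndc80 and Pttg1 had log2 fold changes below 1. At an unadjusted p under 0.05 in edgeR, 45 of the 46 genes were higher, Pttg1 being the exception. The share of all genes tested at this looser threshold was not counted, so the 45 have no baseline and the 6 remain not called. The median gene length in the poly(A) table was 4121 bases for the 6 and 2887 bases for the 40.

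Replicates of the single-cell protocol differed in these genes as a set. In GFP- cells, 38 of 46 were higher in replicate 2 than in replicate 5, with a median difference of 0.48 in log2 (CPM + 0.5), while the median of all genes tested was 0.03. In GFP+ cells, 38 of 46 were higher in replicate 1 than in replicate 4, with a median difference of 0.44 against -0.02. Long genes differed more: the median was 0.90 for the 22 genes over 3000 bases and 0.24 for the 24 shorter ones in GFP- cells, and 0.63 against 0.30 in GFP+ cells. For all genes tested the same medians were 0.33 and -0.22 in GFP- and 0.05 and -0.07 in GFP+ cells. Spearman's rho of the difference with gene length over the 46 genes was 0.50 in GFP- and 0.58 in GFP+ cells. Over all 10523 genes tested it was 0.44 and 0.11. These values share the libraries and the depth of each gene. The fold change between populations had a rho of -0.09 with length.

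**Figure D4:**
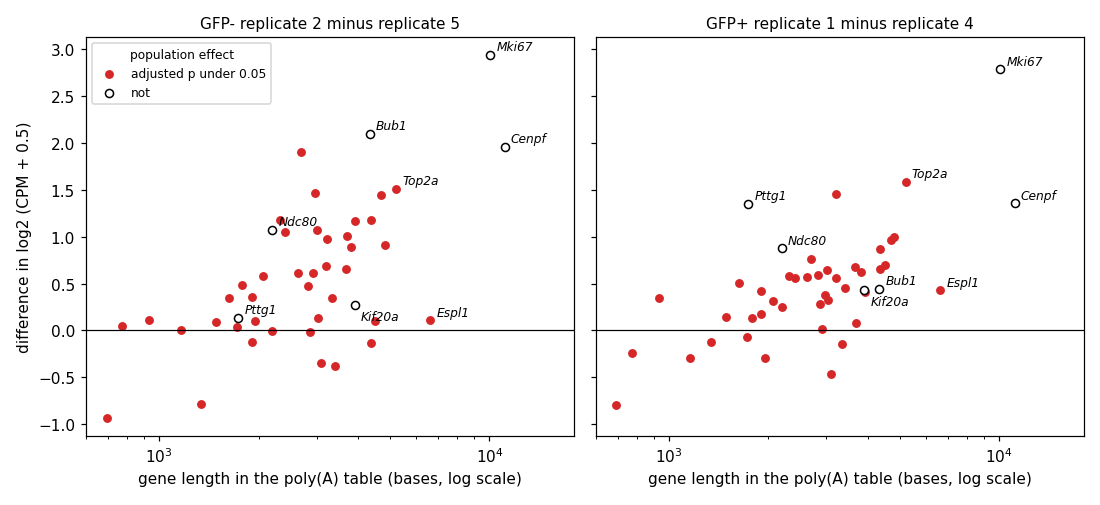
Difference between the 2 single-cell protocol libraries of a population, in log2 (CPM + 0.5), against gene length in bases on a log axis, for 46 genes; red points rose between populations and open points did not pass. Mki67, at the upper right of both panels, differed by 2.94 and 2.79, and most points lie above 0.

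Both protocols gave positive changes for most mitosis genes. From the 4 single-cell protocol libraries alone, with 2 residual degrees of freedom, 32 of 46 genes rose and 0 fell, against 5.54% and 1.41% of 10236 genes, and the median log2 fold change was 2.05. Without GFP+ replicate 1 the median was 1.72, and without GFP- replicate 2 it was 2.60. Each of these fits leaves 1 library in a population, so its calls are not given here. Over the 46 genes, Spearman's rho between the poly(A) ratio and the single-cell protocol fold change was 0.76, against 0.85 over 10173 genes, as a description. An edgeR test of the protocol by population interaction called 0 of 46 genes and 0.0% of 10523, with 0 of 46 and 24 of 10523 at an unadjusted p under 0.05 in edgeR and 0 and 25 in limma-voom. The interaction of the 46, single-cell protocol minus poly(A), ran from -0.87 for Bub1 to 1.17 for Birc5 on the log2 scale. With 2 residual degrees of freedom only large differences could pass.

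Per kilobase of gene length, poly(A) levels of the genes spanned a wide range. In GFP- cells Ncapd2 was highest at 23.7 RPKM (counts scaled to gene length and library total), before Cenpa at 16.9, Pttg1 at 14.4 and Incenp at 14.1 RPKM. In GFP+ cells Ncapd2 stood at 50.9 RPKM, Racgap1 at 44.9, Cenpa at 41.5, Incenp at 37.2, Ube2c at 35.8 and Aurkb at 34.1 RPKM, while Pttg1 remained at 13.8 RPKM. The lowest in both was Anln, at 0.481 and 1.95 RPKM, with Bub1 at 0.491 and 2.12 RPKM and Ttk at 0.648 and 2.10 RPKM close to it. With 1 library per population, neighbours in this order cannot be separated.

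The genes of 8 further lists, 140 in all, moved less. They are other genes of mitosis, together with 19 cell cycle brakes and MuvB subunits. Of 109 tested, 31 rose (28.4%, beside 9.81% of all genes tested) and 0 fell, with a median log2 fold change of 0.35, beside 1.95 for the 46 genes. DESeq2 called 34 of the 109 higher (31.2%) and 4 lower, beside 1201 higher (11.4%) and 714 lower of the 10523 genes. Leaving out a library changed this count strongly. Without GFP- replicate 20 or GFP+ replicate 19, 6 rose in each fit, 5.50% of the 109, which is no more than about the share of all genes, 5.64% and 5.34%. Without GFP+ replicate 1, 12 of the 109 rose, beside 5.29% of all genes, and without each of the other 3 libraries 25 to 32 rose. By list, the rises were 1 of 12 for the APC/C, 2 of 15 for cohesin and condensin, 3 of 15 for the brakes, 5 of 20 for the kinetochore, 2 of 6 for the checkpoint, 8 of 24 for the spindle, 7 of 12 for entry and 3 of 5 for cytokinesis.

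**Figure D5:**
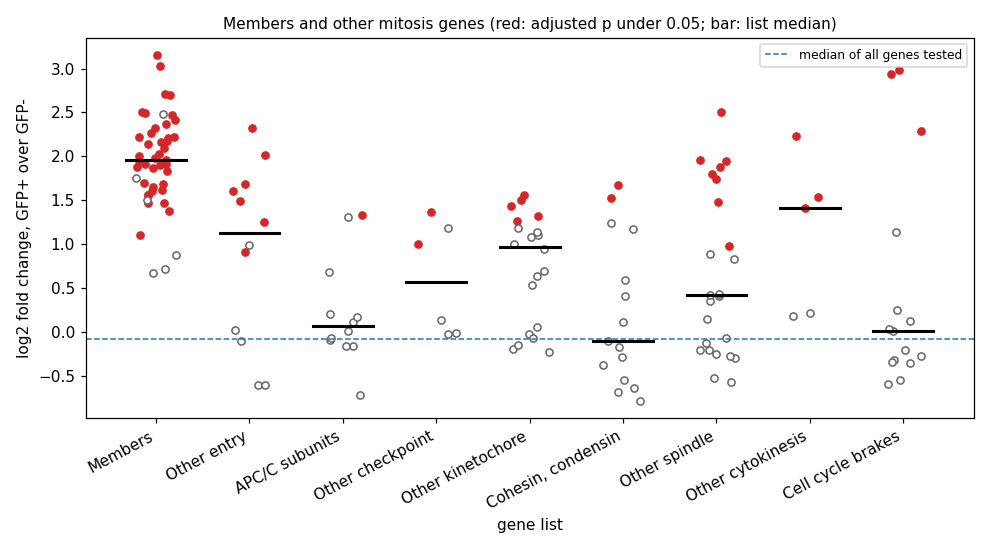
EdgeR log2 fold change of each tested gene, GFP+ over GFP-, for the 46 mitosis genes and the 8 further lists; red points rose, open points did not pass, bars are list medians and the dashed line is the median of all genes tested, -0.08. The first column lies wholly above 0, and the APC/C, cohesin and condensin, and cell cycle brake lists centre near the dashed line.

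In the list of other entry regulators, Cdc25b, a phosphatase that activates CDK1, rose by 2.02 ± 0.27, Pbk, a mitotic kinase, by 2.32 ± 0.33 and Mybl2, the MYB factor of the MYB-MuvB complex, by 1.68 ± 0.30 on the log2 scale. The call for Mybl2 was lost without GFP- replicate 20, GFP+ 19 or GFP+ 1 (adjusted p = 0.0823 without the first of these, edgeR). Among APC/C subunits and regulators 1 of 12 rose, a share near that of all genes, with a median of 0.06: Fbxo5, the APC/C inhibitor EMI1, at 1.33 ± 0.28, again lost without those 3 libraries (highest adjusted p = 0.0851, edgeR).

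Of 6 other checkpoint genes 2 rose, Trip13, an ATPase that remodels MAD2, by 1.37 ± 0.24 and Spdl1, a dynein adaptor at kinetochores, by 1.00 ± 0.27. Of 20 other kinetochore genes 5 rose, with Cenpm at 1.51 ± 0.29, Ska3 at 1.56 ± 0.31 and Cenph at 1.26 ± 0.27. Without GFP- replicate 20 or GFP+ replicate 19 none of these 7 was called (for example Trip13, adjusted p = 0.114, and Spdl1, 0.445, without GFP+ replicate 19 in edgeR), and 2 of 20 kinetochore genes were called without GFP+ replicate 1. Spdl1 kept its call in 1 of the 6 fits. Of 15 cohesin and condensin genes 2 rose, Esco2, an acetyltransferase of cohesin, by 1.67 ± 0.32 and Ncapg2, a condensin II subunit, by 1.52 ± 0.34, and the list's median was -0.11. Without GFP- replicate 20 or GFP+ replicate 19 neither was called, with the highest adjusted p at 0.0754 for Esco2 and 0.124 for Ncapg2 in edgeR, and Ncapg2 was lost without GFP+ replicate 1 too.

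Smc2, the ATPase that condensin I and II share, had a change of 0.59 ± 0.36 (adjusted p = 0.339, edgeR). Its partner Smc4 had 14242 poly(A) counts in GFP- and 5884 in GFP+ cells, a log2 ratio of -1.33, with no single-cell protocol counts to set beside it. The condensin I genes Ncapd2, Ncapg and Ncaph had poly(A) ratios of 1.10, 1.66 and 1.85 in the same libraries. Smc2 and Smc4 were singled out after their values were seen.

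Of 24 other spindle genes 8 rose, with Stmn1, a destabiliser of microtubules, at 2.50 ± 0.28, Fam83d, a spindle anchor of casein kinase, at 1.96 ± 0.38 and Kif14, a motor of cytokinesis, at 1.80 ± 0.41. Stmn1 kept its call whichever library was left out. Fam83d and Kif14 lost theirs without GFP- replicate 20 or GFP+ replicate 19 (highest adjusted p 0.131 and 0.445, edgeR), and 1 of 24 was then called. Without GFP+ replicate 1 it was 2 of 24, and without GFP+ replicate 4 it was 5. Fam83d was lost without GFP+ replicate 1 too (adjusted p = 0.0531, edgeR), and Kif14 without GFP+ replicate 4 (adjusted p = 0.0590, edgeR). Of 5 other cytokinesis genes 3 rose, with Depdc1b at 2.23 ± 0.50, Arhgap11a at 1.54 ± 0.27 and Cep55 at 1.41 ± 0.32. Without GFP- replicate 20 or GFP+ replicate 19 Arhgap11a alone of these was called, and without GFP+ replicate 1 none was, its adjusted p being 0.0504 in edgeR.

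The list of cell cycle brakes and MuvB subunits had a median of 0.01 over 15 tested genes, and 3 rose. Cdkn1a, the CDK inhibitor p21, stood at 1.09, 1.03 and 2.63 CPM in GFP- and at 8.61, 13.7 and 13.7 CPM in GFP+ libraries, a rise of 2.98 ± 0.34 (adjusted p = 0.000733, edgeR). Cdkn2c, p18, stood at 3.24, 3.83 and 6.56 CPM against 17.0, 27.2 and 21.1 CPM (2.29 ± 0.28, adjusted p = 0.000908, edgeR). Neither overlapped between populations, and both kept the call whichever library was left out. Cdkn2b, p15, rose by 2.94 ± 0.57 on 9 and 103 poly(A) counts, a call lost without GFP- replicate 20 or GFP+ replicate 19 (highest adjusted p = 0.150, edgeR). Cdkn2a and Cdkn1b were picked after their values were seen. Cdkn2a was not tested and had 6 and 235 counts in the poly(A) pair, which has 1 library per population. Its single-cell protocol counts are not given here. Cdkn1b, p27, had a change of -0.35 ± 0.25 (adjusted p = 0.404, edgeR). The GFP+ libraries thus held more of most mitosis genes and of Cdkn1a and Cdkn2c at once, while most genes of the brake list were not called.

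Marker genes of other cell types give the setting of these values. All 13 tested myeloid markers rose, with a median log2 fold change of 5.64, among them Csf1r, the receptor of macrophage growth factor, at 2.68, 3.96 and 3.58 CPM in GFP- and 224, 313 and 278 CPM in GFP+ libraries. Of 9 tested T cell markers 1 rose, Ctla4, and the list's median was -0.18. Of 6 plasma cell markers 2 rose, Sdc1 and Irf4, with summed levels of 129 to 207 CPM against 184 to 456 CPM, and of 6 B cell markers 0 rose or fell in edgeR, with summed levels of 58.7 to 164 against 70.8 to 277 CPM. Of the erythroid markers Hba-a1 rose, with sums of 18.2 to 315 against 51.8 to 895 CPM. Fcer1g rose and Ncr1 fell among natural killer cell markers, Cd8a fell among CD8 T cell markers, and the 1 tested dendritic cell marker did neither. The calls for Sdc1, Irf4, Cd8a, Ncr1 and Hba-a1 were lost when single libraries were left out (highest adjusted p 0.270, 0.0888, 0.214, 0.0712 and 0.0641, edgeR). The part of these other cells in the mitosis genes' values was not tested.

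Motif shares in the further lists were lower than in the mitosis genes but mostly above those of all windows. Of 135 windows of the other pathway genes 30.4% held a CHR, 22.2% one near the start, 54.1% a CCAAT box and 14.1% both. The APC/C list had a CHR in 12.5% of windows and one near the start in 12.5% too. For the brakes these shares were 26.3% and 5.26%, and for all windows 17.9% and 8.01%.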

How the data were processed

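RNA of sorted GFP+ and GFP- Treg was sequenced in 6 libraries. Per the labels' protocols RNA was purified with a column kit, and libraries were made by poly(A) selection or the single-cell approach. The authors deposited raw counts per Entrez gene in 1 table per protocol, gene lengths, and log2 RPKM values, which are on the log2 scale per the file headers and served only as an alternative. The submitters' processing notes name Subread, featureCounts, edgeR and build mm9. The sources used here give neither versions nor strand use, so reads of overlapping or antisense genes may be shared. Nearly all lengths in the single-cell protocol table are at or under 3000 bases (30.9% of genes have exactly that), while 28 of the 56 genes are longer in the poly(A) table, and how their reads were counted is not stated. A total of 540 genes without a symbol held 0.604% to 4.53% of counts and stayed in.

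Counts were joined by gene number and analysed with edgeR 4.0.16, limma 3.58.1 and DESeq2 1.42.0 in R 4.3.3. The tested genes passed filterByExpr by population, and libraries were scaled by TMM (factors 1.79 and 1.84 for poly(A), 0.550 to 0.897 for the others) and fitted with protocol and population, leaving 3 residual degrees of freedom. The script was tested on simulated data. Standard errors come from the F statistic. Replicates of a population differed (chi-square per degree of freedom 88.9 or more), so none was a copy of another. The study's design calls the samples independent; p-values reflect only how far these samples spread. RPKM values printed were computed from counts and poly(A) table lengths, since the deposited log2 RPKM served only the alternative. Motifs were sought in RefSeq windows, and no coordinates are given because builds differ.

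The genes, lists and tests were chosen with earlier results of these data known. The rule for naming gives values in every library for up to 4 genes per role with the largest mean CPM and for genes that went against their role, and up to 3 genes with the smallest p in each further list. Alternatives covered scaling, filter, tool, covariate, pseudocount and leaving out each library.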

Additional observations from a re-analysis of the deposited data

How the results depend on the processing

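Of the 46 tested mitosis genes, 40 rose over all 6 libraries. All 736 single-gene values over 16 alternatives kept their direction, and 28 of the 40 kept their call whichever library was left out. The count was 39 to 45 under other scalings, no filter, DESeq2, limma-voom, the authors' log2 RPKM and the block below, 32 from single-cell protocol libraries only, and 29 to 42 (median change 1.73 to 2.18) with 1 library left out. Without the protocol term it was 2, with 115 genes of all higher and 24 lower. Over all genes, 1032 rose and 387 fell. No filter gave 1682 and 818, DESeq2 714 lower, and single-cell protocol libraries only 567 and 144. With 1 library left out, 569 to 1359 rose and 140 to 797 fell.

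No paired analysis was possible because the populations share no replicate number. With consecutive title numbers as a block in place of the protocol, 45 of 46 genes rose, and 1658 rose and 1263 fell of all genes, but nothing states that these numbers pair samples. The genes gained were Mki67 (2.50, adjusted p = 4.37e-05, edgeR), Cenpf, Ndc80, Bub1 and Kif20a (adjusted p 0.00145 to 0.0103, edgeR), so all of those not called above except Pttg1. Mki67 CPM was 81.4 and 19.6 for title numbers 19 and 20, 122 and 18.9 for 1 and 2, and 17.3 and 2.03 for 4 and 5, higher in GFP+ each time.

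In the single-cell protocol alone, with alternatives chosen after seeing the data, 31 to 40 genes rose under other tools and filters. With 1 library left out it was 14 to 37 (median 1.72 to 2.60), and over all genes 360 to 742 rose and 63 to 326 fell; a lone library is then taken to vary like the others. No filter gave 230 lower. In the poly(A) pair, pseudocounts of 0.1 and 1 CPM and scaling by the pair kept the medians within their counting intervals, and the ratios of Cdkn3 and Spc25 alone moved out of theirs, at 1 CPM. The causes were not tested. Depth limits Kif18b, Cenpf, Hmmr and Bub1, with under 5 counts in a GFP- library.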
